A study of Mus musculus with 10 samples.

Results

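The comparison set CdxE2_KO embryos, in which a Tfap2c binding motif named CdxE2 was knocked out of the genome, against control embryos (Ctrl). It used 4 of the 10 libraries of the series, 2 for each group. Of 24421 genes in the table, 10524 reached at least 1 linear unit in at least 2 of these 4 libraries and were kept. A gene under 1 unit in both libraries of 1 group was kept only through the other group, which set the direction of its deposited values. All embryos were mouse embryos of BDF1 genotype at the 8-cell stage, and the labels give the treatment as motif knockout for CdxE2_KO and as control for Ctrl. A second motif knockout in the same table, Arpc1bE_CdxE1_KO (2 libraries), was used where the question was whether a change also stood in the other knockout. Knockdowns of Tfap2c (siTfap2c) and of Klf5 (siKlf5), with 2 libraries each, stand in other tables that may have been scaled apart, and their levels are given only beside a few genes. The labels do not give the position of the deleted motifs, what the control embryos received, or whether the 2 libraries of a group came from separate pools of embryos. The p-values therefore measure only the spread between these libraries, which may be technical.

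Tfap2c, also called AP-2 gamma, is a DNA-binding protein of the early mouse embryo that binds GC-rich palindromes. At the 8-cell stage the blastomeres compact and acquire an outer and an inner pole, and the cells that later lie outside become trophectoderm, the lineage that builds the placenta. Cdx2 encodes a homeodomain transcription factor that the trophectoderm requires, and its transcription begins before the blastocyst has formed. Arpc1b is part of Arp2/3, the machine that nucleates new actin branches.

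RNA was measured as total RNA, and each gene has 1 abundance per library on a log2(value + 1) scale, called log2 units here. Depth is unknown, since no read counts were used. The linear values of a library summed to 478651 and 481129 in CdxE2_KO, 483600 and 498621 in Arpc1bE_CdxE1_KO, and 389715 and 390386 in Ctrl. In the knockdown tables they summed to 388454 and 389523 in siTfap2c and to 393934 and 395401 in siKlf5. The median of the kept genes stood at 3.38 and 3.39 log2 units in CdxE2_KO and at 3.04 and 3.05 in Ctrl, and 30.6% to 31.4% of genes were listed at 0 in CdxE2_KO against 26.0% to 27.4% in Ctrl. Each library was therefore centred on its median over the kept genes before groups were compared. Replicates correlated across genes with r = 0.988 in CdxE2_KO and 0.991 in Ctrl. All 6 genes listed as markers of the embryo (Pou5f1, Tfap2c, Klf5, Cdh1, Tead4 and Zp3) were present. In short marker sets, 7 of 7 cumulus and granulosa, 4 of 4 sperm, 3 of 3 blood and 3 of 3 fibroblast markers lay under 1 linear unit in all 4 libraries. Inha, Ptx3, Prm1, Hbb-bs and Col1a2 were at 0 in all 4. Longer lists did hold kept genes: 4 of 17 for cumulus and granulosa cells, of which 1 was called higher in CdxE2_KO. For spermatids 1 of 13 was kept, and for blood and other somatic cells 3 of 12, of which 1 was called higher. None was called lower, and a share of such cells was not tested.

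Relative to the median gene, 567 genes were higher and 875 lower in CdxE2_KO (limma on the centred values, Benjamini-Hochberg adjusted p under 0.05), which is 13.7% of the genes kept, 5.39% higher and 8.31% lower. "Rose" and "fell" below refer to such calls, and a log2 fold change is the CdxE2_KO mean minus the Ctrl mean of the centred values. Most of the changes were small: 91 genes rose and 79 fell by 2-fold or more, together 1.62% of the genes kept. The median log2 fold change was -0.04, with quartiles of -0.24 and 0.16. The libraries of the groups did not overlap in 61.3% of the genes kept, so a lack of overlap by itself is the usual state of a gene here. Of the 1442 genes called, 1384 had a difference of the same sign between Arpc1bE_CdxE1_KO and Ctrl. Both differences share the same Ctrl libraries. A difference in how motif knockout and control libraries were made or processed cannot be told apart from the CdxE2 knockout in this design. The direction of a small change depended on the scaling. Without centring, the median log2 fold change was 0.29 and 4016 genes were called higher and 246 lower, and 94.2% of calls were higher, against 39.3% with centring. With library sums made equal, 848 were higher and 675 lower, which is 55.7% higher. Of the 1442 calls, 769 were called the same way without centring, with equal sums and with equal linear medians (525 higher, 244 lower). Leaving out centring raises every log2 fold change, so it puts falls to a test but not rises. One library also bore on the number: 254 calls held whichever library was left out, and the count was 365 without Ctrl replicate 2, 396 without Ctrl replicate 1, 727 without CdxE2_KO replicate 2 and 1089 without CdxE2_KO replicate 1.

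**Figure D1:**
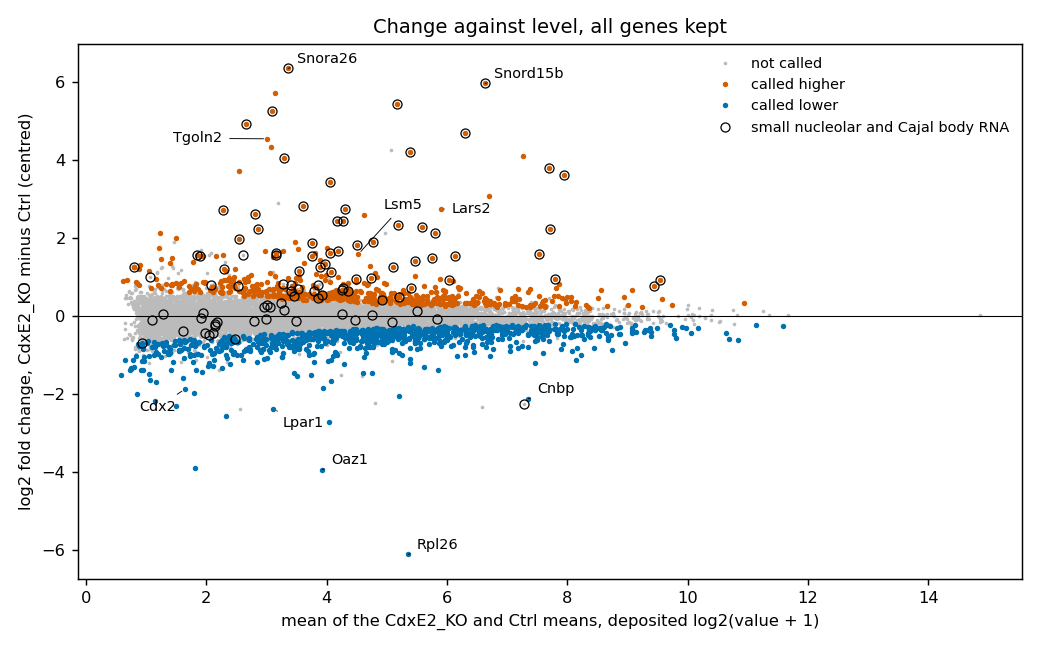
Log2 fold change of each kept gene (vertical, CdxE2_KO minus Ctrl, centred values) against its level (horizontal, mean of both groups in deposited log2 units). Orange points were called higher, blue points lower and grey points neither; open circles mark small nucleolar and Cajal body RNAs, which make up much of the upper edge, and Rpl26 lies lowest at -6.11.

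The gene the motif is named for was lower in the knockout. Cdx2 (chromosome 5, 147300805 to 147307270 in mm10, GENCODE M21) had 0.82 and 0.93 log2 units in CdxE2_KO, against 2.35 and 2.48 in Ctrl. Both knockout libraries lay below both controls by more than 1 log2 unit. Fewer cells with Cdx2 RNA and less of it per cell cannot be told apart in such bulk samples. The log2 fold change was -1.88 (SE 0.15, 95% interval -2.24 to -1.52, limma adjusted p = 0.0023). In linear units the group means were 0.831 in CdxE2_KO and 4.34 in Ctrl, so Cdx2 was close to the lower limit used for keeping genes, and the size of the change depends on the constant added before the logarithm. It was -2.63 with a constant of 0.1 (adjusted p = 0.0037) and -0.91 with a constant of 5 (adjusted p = 0.0012). With 1 library left out it ranged between -1.94 and -1.82, with adjusted p between 0.0028 and 0.025, and without centring it was -1.54 (adjusted p = 0.0021). With a minimum of 5 linear units Cdx2 was no longer kept and had no value. Both CdxE2_KO libraries lay under 1 linear unit, so Cdx2 passed the filter of 1 unit through Ctrl alone and could only show a fall. Without a filter its log2 fold change was -1.76 (limma adjusted p = 0.028).

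Cdx2 was also measured in the other motif knockout and in the knockdowns. It had 0.77 and 1.53 log2 units in Arpc1bE_CdxE1_KO. In the knockdown tables, which may have been scaled apart, it had 0.23 and 0.57 in siTfap2c and 1.15 and 1.23 in siKlf5. The direct difference in Cdx2 between CdxE2_KO and Arpc1bE_CdxE1_KO did not pass the test (log2 fold change -0.29, 95% interval -0.90 to 0.33, limma adjusted p = 0.68). The interval leaves room for a difference of either sign, and the Arpc1bE_CdxE1_KO libraries lay further apart than those of CdxE2_KO or Ctrl.

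The start of Cdx2 is shown because the knocked-out motif is one that Tfap2c binds. The RefSeq window of 250 bases before to 50 bases after the annotated start (GRCm38.p6, chr5:147307200-147307499, minus strand) reads 5′ to 3′, with the AP-2 palindrome in capitals:
Cdx2: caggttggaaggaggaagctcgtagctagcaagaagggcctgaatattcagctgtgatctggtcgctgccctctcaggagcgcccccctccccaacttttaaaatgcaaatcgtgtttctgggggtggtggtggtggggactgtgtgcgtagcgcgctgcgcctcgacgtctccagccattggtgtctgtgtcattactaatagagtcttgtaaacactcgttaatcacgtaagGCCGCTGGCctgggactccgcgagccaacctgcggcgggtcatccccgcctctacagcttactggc
The search was for GCCNNNGGC, which reads the same on both strands. It occurred once, 16 to 8 bases before the start site, as GCCGCTGGC. The same letters stood in 16.6% of all 32851 RefSeq windows, in 25.3% of the windows of genes kept here, in 26.1% of those of genes that fell and in 23.0% of those of genes that rose. Windows of Arpc1b, Lsm5 and Lpar1 did not hold them. A match is a run of letters in this window. It does not locate the deleted motif, whose position the labels do not give.

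Genes beside Cdx2 on chromosome 5 were looked at on each side. Of the 10 nearest with a symbol in the table, 5 were kept, and Mtif3 and Pan3 fell. Mtif3, a mitochondrial translation initiation factor, had 3.12 and 3.28 log2 units in CdxE2_KO, against 3.57 and 3.48 in Ctrl (log2 fold change -0.67, adjusted p = 0.019). Pan3, a part of a deadenylase that shortens poly(A) tails, had 4.26 and 4.22 in CdxE2_KO, against 4.33 and 4.42 in Ctrl (-0.47, adjusted p = 0.023). Neither call held in every fit that left out a library, and without centring neither passed (-0.33 and -0.14). Lnx2, Polr1d and Pomp had log2 fold changes of -0.24, -0.04 and -0.28 with adjusted p of 0.30, 0.82 and 0.12. Their values without centring were 0.10, 0.30 and 0.06.

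The other genes named in the study's groups moved little. Arpc1b (chromosome 5, 145114215 to 145130705) had 4.84 and 4.66 log2 units in CdxE2_KO, against 4.71 and 4.48 in Ctrl, and these ranges overlap. Its log2 fold change was -0.18 (95% interval -0.46 to 0.10, limma adjusted p = 0.34), and 0.16 without centring. In Arpc1bE_CdxE1_KO, whose name points to it, Arpc1b had 3.27 and 3.30 log2 units. The direct difference between the knockouts was 1.45 (SE 0.12, adjusted p = 0.019), higher in CdxE2_KO. It lost its call when either CdxE2_KO library (adjusted p = 0.071 without replicate 1 and 0.077 without replicate 2) or either Ctrl library (0.059 and 0.058) was left out. Tfap2c had 6.61 and 6.48 in CdxE2_KO, against 6.61 and 6.61 in Ctrl, which overlap on the deposited scale. It was called lower after centring (-0.40, adjusted p = 0.020), and had -0.07 without centring (adjusted p = 0.46). Klf5, a Krüppel-like factor of the same stage, had 7.12 and 6.95 in CdxE2_KO, against 7.20 and 7.13 in Ctrl (-0.47, adjusted p = 0.018; -0.13 without centring, adjusted p = 0.20). Both calls therefore rest on the centring, and neither held in all 4 fits that left out a library.

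**Figure D2:**
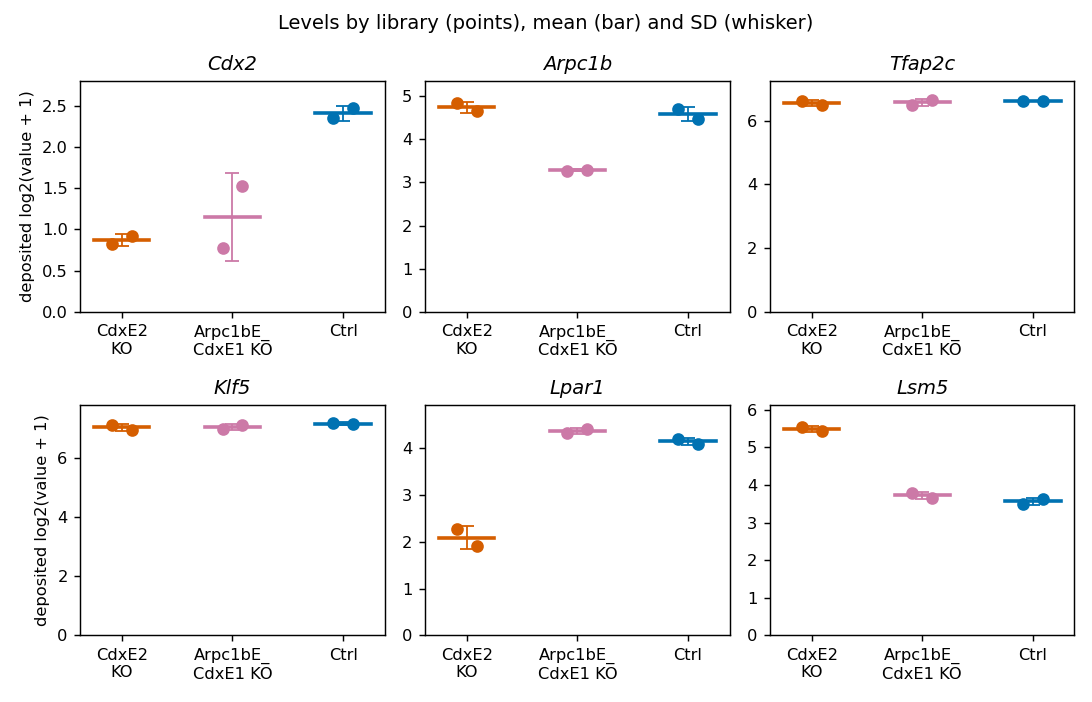
Deposited log2 units in each library of CdxE2_KO, Arpc1bE_CdxE1_KO and Ctrl (points), with the mean (bar) and SD (whisker, n = 2). Cdx2 is low in both knockouts, Arpc1b is low in Arpc1bE_CdxE1_KO, Tfap2c and Klf5 lie close together in all groups, and Lpar1 and Lsm5 stand apart in CdxE2_KO.

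Where the knockouts were compared with each other in 1 fit of 6 libraries, 5 of 10920 genes differed (0.0458%), while 1220 had an unadjusted p under 0.05. These were Arpc1b, Lsm5, Lpar1, Dpm1-adnp and Dbf4. Lsm5 and Lpar1 were the ones that also differed between CdxE2_KO and Ctrl, and they kept the call between the knockouts whichever library was left out.

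Lpar1 (chromosome 4, 58435255 to 58553898) encodes a G-protein-coupled receptor for lysophosphatidic acid. It had 2.27 and 1.91 log2 units in CdxE2_KO, against 4.32 and 4.41 in Arpc1bE_CdxE1_KO and 4.19 and 4.09 in Ctrl. Its log2 fold change was -2.39 against Ctrl (SE 0.16, limma adjusted p = 0.0011) and -2.29 against the other knockout (SE 0.15, adjusted p = 0.0044). In the knockdowns it had 4.42 and 4.63 in siTfap2c and 3.43 and 3.49 in siKlf5. The CdxE2_KO libraries were thus the lowest of the 10.

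Lsm5 (chromosome 6, 56701063 to 56704710) encodes a subunit of the LSm rings that bind U6 small nuclear RNA and take part in mRNA decay. It had 5.55 and 5.43 log2 units in CdxE2_KO, against 3.79 and 3.66 in Arpc1bE_CdxE1_KO and 3.50 and 3.63 in Ctrl. It was higher by 1.58 than in Ctrl (SE 0.09, adjusted p = 0.00069) and by 1.75 than in the other knockout (SE 0.11, adjusted p = 0.0044). It varied widely in siKlf5, with 2.12 and 4.55, and had 3.98 and 4.52 in siTfap2c. The CdxE2_KO libraries were the highest of the 10.

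Like Arpc1b, Dbf4 and Dpm1-adnp lost their calls between the knockouts in some of the fits that left out a library. Dbf4, the regulatory subunit of the kinase that fires replication origins, had 7.50 and 7.58 in CdxE2_KO, against 6.76 and 6.75 in Arpc1bE_CdxE1_KO and 6.95 and 7.0 in Ctrl. The difference between the knockouts was 0.77 (adjusted p = 0.048), and adjusted p reached 0.41 without CdxE2_KO replicate 2. Its log2 fold change against Ctrl was 0.22 with adjusted p = 0.052. Dpm1-adnp, a read-through entry, had 6.40 and 5.77 in CdxE2_KO, against 4.09 and 3.63 in Arpc1bE_CdxE1_KO and 5.94 and 5.98 in Ctrl, so CdxE2_KO and Ctrl overlap and Arpc1bE_CdxE1_KO is the low group. Its difference between the knockouts was 2.21 (adjusted p = 0.043, and 0.14 when either Ctrl library was left out). The number of calls between the knockouts ranged between 2 and 141 when 1 library was left out, with 141 without Arpc1bE_CdxE1_KO replicate 2, 14 without replicate 1 of that group and 10 without CdxE2_KO replicate 1. Without Ctrl replicate 1 or Ctrl replicate 2 it was 2 each.

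Among 30 listed genes of the trophectoderm program, 19 were kept, 3 rose and 5 fell, and their median log2 fold change was -0.09 against -0.04 over all genes kept. Over all genes kept 5.39% rose and 8.31% fell. The counts of this and of every later list are to be read against these shares. Cdx2 was the member with the greatest fall and the one call of this list that held whichever library was left out. Tead4, the transcription factor that acts upstream of Cdx2, had 6.35 and 6.21 log2 units in CdxE2_KO, against 6.53 and 6.46 in Ctrl (-0.55, limma adjusted p = 0.011; 0.058 without centring). Lrp2, an endocytic receptor, had 1.76 and 2.20 in CdxE2_KO, against 2.71 and 2.73 in Ctrl (-1.08, adjusted p = 0.017). In the other direction, the water channel gene Aqp3 rose by 0.38 (adjusted p = 0.018). Hand1, a trophoblast transcription factor named after its values were seen, had 7.69 and 7.42 in CdxE2_KO, against 6.73 and 6.70 in Ctrl (0.50, adjusted p = 0.027). With 1 library left out, the highest adjusted p was 0.057 for Tead4, 0.083 for Lrp2, 0.078 for Aqp3 and 0.11 for Hand1. Of the 13 listed genes of keratins and desmosomes 4 were kept, and limma called none of them, with 0 at an unadjusted p under 0.05.

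Of 30 listed pluripotency and inner cell mass genes, 26 were kept, 11 fell and 4 rose, and the median was -0.36. Over all genes kept 8.31% fell and 5.39% rose. Nr5a2, a nuclear receptor that acts in the early embryo, had 8.82 and 8.73 log2 units in CdxE2_KO, against 9.13 and 9.15 in Ctrl (-0.70, SE 0.06, adjusted p = 0.0023). Tfcp2l1, a transcription factor of naive pluripotency, had 3.02 and 2.78 in CdxE2_KO, against 4.21 and 3.82 in Ctrl (-1.45, adjusted p = 0.0074). Both were lower in each knockout library than in each control. Pou5f1, the core pluripotency factor also known as Oct4, had 6.27 and 6.12 in CdxE2_KO, against 6.48 and 6.50 in Ctrl (-0.63, adjusted p = 0.0077). Sall4, a zinc finger factor that works with it, had 7.80 and 7.75 in CdxE2_KO, against 7.88 and 7.90 in Ctrl (-0.45, adjusted p = 0.0077). These 4 calls held whichever library was left out. Without centring Pou5f1 still passed (-0.30, adjusted p = 0.022), and Sall4 did not (-0.12, adjusted p = 0.12). Nanog, named after its values were seen, went the other way, with 4.74 and 4.96 in CdxE2_KO against 3.95 and 3.45 in Ctrl (0.81, adjusted p = 0.035, up to 0.088 with 1 library left out). Of the 15 calls in this list, 10 were made the same way without centring. Between the knockouts, Tfcp2l1 and Pou5f1 did not pass (adjusted p = 0.22 and 0.33).

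For primitive endoderm, 9 of 17 listed genes were kept, 3 fell and 1 rose, with a median of -0.25, where 8.31% fell and 5.39% rose over all genes kept. Gata6, a zinc finger factor that specifies this lineage, had 6.62 and 6.59 log2 units in CdxE2_KO, against 6.86 and 6.82 in Ctrl (-0.57, adjusted p = 0.0052). It held whichever library was left out. The receptor gene Pdgfra rose by 0.52 (adjusted p = 0.031) and the basement membrane gene Col4a1 fell by 0.77 (adjusted p = 0.041), and neither held in any fit that left out a library.

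Of 17 genes of the Krüppel-like family 11 were kept, 3 fell and 1 rose, with a median of -0.15; over all genes kept, 13.7% were called. Of these 4 calls 1 was made the same way without centring. The rise was Klf17, an oocyte and early embryo factor, with 7.57 and 7.82 log2 units in CdxE2_KO against 6.54 and 6.79 in Ctrl (0.69, adjusted p = 0.016, held in 3 of 4 fits that left out a library). Klf4 fell by 0.40 and Klf9 by 0.32 (adjusted p = 0.023 and 0.043), and without centring they had -0.07 and 0.02. Of 5 AP-2 genes 2 were kept, and Tfap2c was the one called, with centring only.

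Actin and Hippo genes bear on the shape and position of the blastomeres. Of 37 listed actins and actin-binding proteins 34 were kept, 8 fell and 2 rose, with a median of -0.25. Over all genes kept 8.31% fell and 5.39% rose with centring, and 5 of these 10 actin calls were made the same way without it. Actg1, cytoplasmic gamma-actin, had 5.13 and 5.16 log2 units in CdxE2_KO, against 5.62 and 5.63 in Ctrl (-0.82, SE 0.07, adjusted p = 0.0026). The actin crosslinker gene Actn4 fell by 0.54 and the non-muscle myosin heavy chain gene Myh10 by 0.56 (adjusted p = 0.0053 and 0.0077), and these 3 held whichever library was left out. Actb, cytoplasmic beta-actin, fell by 0.50 (adjusted p = 0.011; 0.089 without centring). Among 25 genes of the Arp2/3 complex and its activators, 22 were kept, 1 fell (Arpc4, -0.39, adjusted p = 0.050, named after its values were seen) and the median was -0.10. Limma called no member of that list higher, and 1 had an unadjusted p under 0.05.

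Of 29 Hippo pathway genes 27 were kept, 6 fell and 1 rose, with a median of -0.05, and 3 of these 7 calls were made the same way without centring. Lats2, the kinase that keeps the coactivator Yap1 out of the nucleus, fell by 0.58 (adjusted p = 0.0069) and held whichever library was left out. Vgll4, which competes with Yap1 for Tead factors, fell by 0.96 and the Yap1 target Cyr61 rose by 0.58 (adjusted p = 0.015 and 0.017), and each lost its call in at least 1 fit that left out a library. Of 31 polarity and junction genes 26 were kept and 4 fell, with a median of -0.15. These were Llgl1, Pard6b and Crb3, which act in the polarity complexes, and Cdh1, the adhesion molecule E-cadherin that compaction needs. Cdh1 had 6.34 and 6.25 log2 units in CdxE2_KO, against 6.31 and 6.27 in Ctrl, so its call (-0.33, adjusted p = 0.029) came from the centring and its value without it was 0.0081. Limma called no member of the polarity list higher, and 2 had an unadjusted p under 0.05. Of 18 ion and water transport genes 14 were kept, 2 rose and 2 fell.

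**Figure D3:**
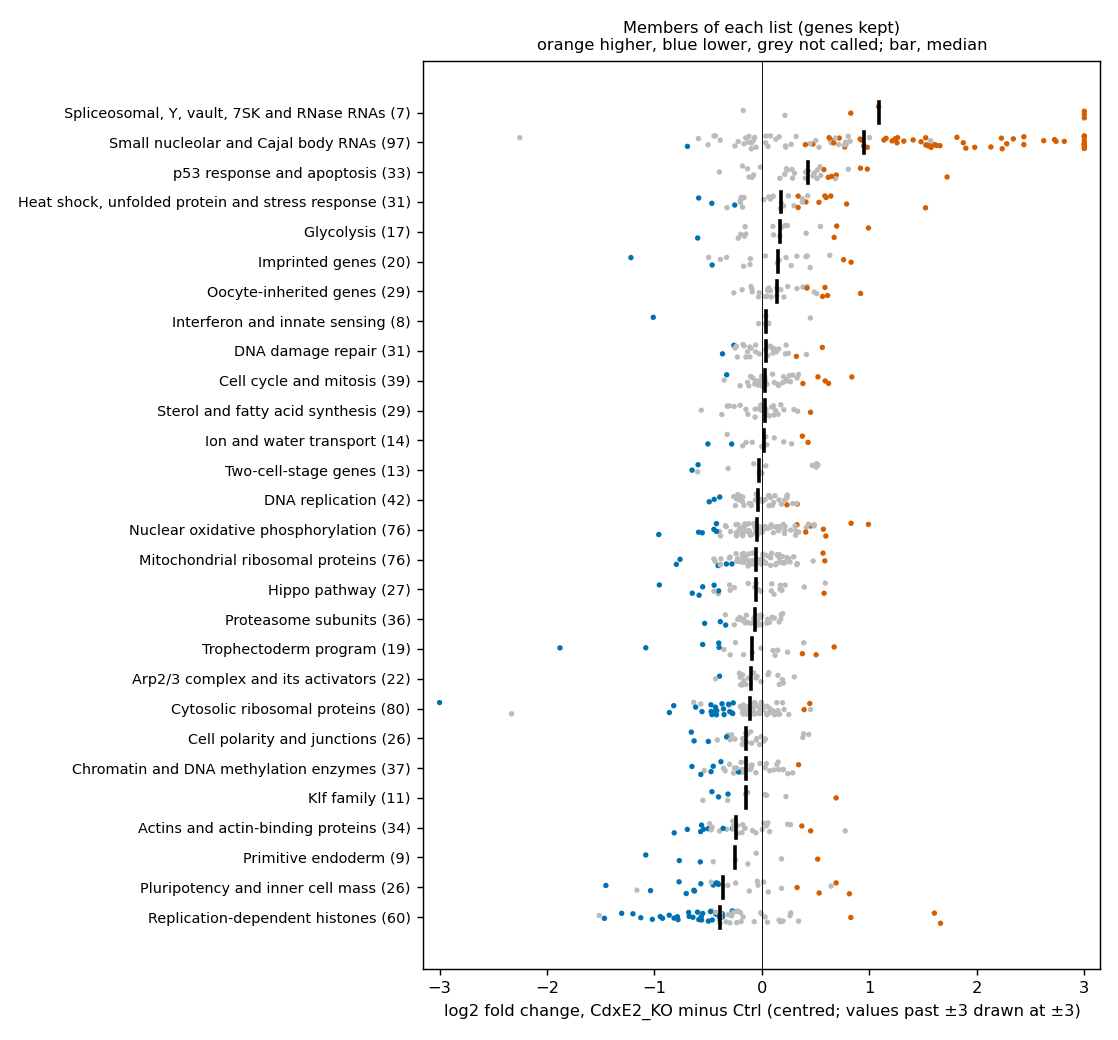
Log2 fold change (horizontal, CdxE2_KO minus Ctrl, centred) of each kept member of each gene list with at least 5 kept members, with the number kept in brackets and the median as a black bar; values past 3 in either direction are drawn at 3. Small RNAs and p53 response genes lie furthest right, and pluripotency genes and histones furthest left.

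Calls in the p53 response and apoptosis list were all rises. Of 37 listed genes 33 were kept and 8 rose, and the median was 0.43, where 5.39% rose and 8.31% fell over all genes kept. Limma called none lower, with 0 at an unadjusted p under 0.05 in that direction, against 20 in the other. Bbc3, which encodes the death-promoting protein Puma, had 4.46 and 4.64 log2 units in CdxE2_KO, against 2.02 and 2.96 in Ctrl (1.72, SE 0.29, adjusted p = 0.018). Plk2, a kinase that p53 induces, had 4.0 and 4.02 in CdxE2_KO, against 2.65 and 2.74 in Ctrl (0.98, adjusted p = 0.0061). Bbc3 and Plk2 held whichever library was left out. All 8 were also called without centring, but this raises every log2 fold change and so does not test a rise. Bcl2l11, which encodes Bim, rose by 0.65, Trp53inp1 by 0.62 and Ccng1 by 0.69 (adjusted p = 0.010, 0.013 and 0.016). With 1 library left out their adjusted p reached 0.053, 0.065 and 0.070. The direct difference between the knockouts was 0.08 for Bbc3 (95% interval -0.57 to 0.72) and 0.02 for Plk2 (-0.23 to 0.28). Of 31 DNA damage repair genes, all kept, 2 rose and 2 fell, with a median of 0.04.

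Heat shock, unfolded protein and stress genes moved in both directions. Of 35 listed 31 were kept, 9 rose and 3 fell, with a median of 0.18, where 5.39% rose and 8.31% fell over all genes kept. Hspa5, the chaperone of the endoplasmic reticulum, had 6.96 and 7.12 log2 units in CdxE2_KO, against 6.10 and 6.13 in Ctrl (0.59, adjusted p = 0.0080). Hspa8, the constitutive cytosolic chaperone, had 10.61 and 10.50 in CdxE2_KO, against 10.83 and 10.79 in Ctrl (-0.59, adjusted p = 0.0052). Both held whichever library was left out. Hmox1, haem oxygenase, had 2.83 and 3.35 in CdxE2_KO, against 1.27 and 1.20 in Ctrl (1.52, adjusted p = 0.0092, up to 0.051 with 1 library left out). Ppp1r15a, which restarts translation after stress, rose by 0.64 (adjusted p = 0.010, up to 0.055). Of 23 interferon genes 8 were kept and 1 fell (Oasl2, -1.01, adjusted p = 0.014, named after its values were seen).

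Most of the largest changes among genes other than small RNAs also stood in the other motif knockout. Rpl26 (chromosome 11, 68901583 to 68906989), a protein of the large ribosomal subunit, had 2.56 and 2.37 log2 units in CdxE2_KO, against 8.20 and 8.29 in Ctrl (-6.11, SE 0.09, adjusted p = 3.1e-06). In Arpc1bE_CdxE1_KO it had 2.92 and 2.49, and in the 4 knockdown libraries between 8.28 and 8.62. Oaz1, ornithine decarboxylase antizyme, had 2.72 and 1.53 in CdxE2_KO, against 5.64 and 5.82 in Ctrl (-3.94, adjusted p = 0.0037). Amd1, an enzyme of polyamine synthesis, had 0.02 and 0.05 in CdxE2_KO, against 4.0 and 3.21 in Ctrl (-3.91, adjusted p = 0.0013). Amd1 lay under 1 linear unit in CdxE2_KO and passed the filter through Ctrl alone, so it could only show a fall. Hnrnpa3, an RNA-binding protein, had 2.94 and 2.76 in CdxE2_KO, against 5.32 and 5.14 in Ctrl (-2.71, adjusted p = 0.0002). Cnbp fell by 2.12, Fam134c by 1.85, Tgoln1 by 1.68, Wdr89 by 1.53 and Rffl by 1.51, with adjusted p of at most 0.0044. All these calls held whichever library was left out.

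In the other direction, Tgoln2, a protein of the trans-Golgi network, had 5.36 and 5.54 log2 units in CdxE2_KO, against 0.59 and 0.56 in Ctrl (4.54, SE 0.12, adjusted p = 2.5e-05). Tgoln2 lay under 1 linear unit in Ctrl and passed the filter through CdxE2_KO alone, so its deposited values could only be higher there. Lars2, the mitochondrial leucyl-tRNA synthetase, had 7.42 and 7.45 in CdxE2_KO, against 4.36 and 4.36 in Ctrl (2.74, adjusted p = 1.1e-05). Snn rose by 1.90, Tmem38b by 1.73, Xaf1 by 1.42 and Sdc4 by 1.36, and Sdc4 alone among the 10 largest rises lost its call in some fits that left out a library. Of the 25 genes with the largest changes by the naming rule, small RNAs included, 22 had all 4 motif knockout libraries outside the range of the other 6 libraries. The exceptions were Snn, Lsm5 and Lpar1. This count is of deposited values without centring. The 25 were picked for large changes and separate libraries between CdxE2_KO and Ctrl, so part of the separation follows from that choice. The share of all genes kept with such a separation was not counted, so the count cannot be called unusual. Bbc3 was separate by little, with 4.41 in Arpc1bE_CdxE1_KO replicate 2 against 4.14 in siTfap2c replicate 2. The medians of the kept genes in these 2 libraries were 3.34 and 3.06, so Bbc3 is not clearly separate relative to them. In the direct test between the knockouts, Lsm5 and Lpar1 alone of these 25 passed.

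Several of these genes have a close relative in the table, and reads of near-identical copies may be divided between them by the counting, so single values are uncertain. Tgoln1 had 3.58 and 3.23 log2 units in CdxE2_KO and 4.74 and 4.75 in Ctrl, while Tgoln2 moved the other way. Their linear sum was 51.0 and 53.9 units in CdxE2_KO, against 26.1 and 26.4 in Ctrl. Amd2 had 7.47 and 7.40 in CdxE2_KO, against 6.68 and 6.76 in Ctrl, and Amd1 and Amd2 together summed to 177 and 168 units in CdxE2_KO, against 116 and 116 in Ctrl. Eif3j1 fell by 2.57 and Eif3j2 rose by 0.71, and their sum was 107 and 107 units in CdxE2_KO, against 63.5 and 57.4 in Ctrl. These pairs were chosen after their values were seen. In these 3 pairs the sum was higher in CdxE2_KO, while 1 member of the pair was lower there. Rplp2 and Rplp2-ps1, in contrast, both had positive log2 fold changes (0.21 and 3.72), with sums of 227 and 220 units in CdxE2_KO, against 136 and 140 in Ctrl. These sums are of uncentred values, and the linear sum of whole libraries was also higher in CdxE2_KO, 478651 and 481129 units against 389715 and 390386 in Ctrl.

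Small non-coding RNAs made up most of the large rises. Of 263 kept genes with small RNA symbols, 78 rose and 15 fell (29.7% higher), and 56 of the 91 rises of 2-fold or more were theirs, against 27 for the 9866 protein-coding genes (4.73% higher). Small RNA symbols also made up 10 of the 79 falls of 2-fold or more. Of 119 listed small nucleolar and Cajal body RNAs, which guide chemical modification of ribosomal and spliceosomal RNA, 97 were kept, 56 rose and 1 fell, and the median was 0.95. The H/ACA box RNAs, which guide pseudouridylation, rose almost throughout, 32 of 33 kept, with a median of 1.66, and Snora19 was the one not called. Snora26 among them passed the filter through CdxE2_KO alone, so its deposited values could only be higher there. How many other small RNAs did so was not counted. Of 57 C/D box RNAs, which guide 2′-O-methylation, 19 rose and 1 fell, with a median of 0.53. Of 7 Cajal body RNAs 5 rose. Scarna13, named after its values were seen, differed between replicates, with 2.92 and 9.72 log2 units in CdxE2_KO against 8.27 and 8.20 in Ctrl (adjusted p = 0.47). Of the 57 calls in the list 56 were also made without centring, which raises every log2 fold change and so does not test a rise.

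Snora26, Snord15b and Snora47, the small nucleolar RNAs with the 3 largest rises, are shown with Snord15a, the relative of Snord15b in the same host gene, because they differ in box type. They are read 5′ to 3′ from GENCODE M21 transcripts on mm10. Capitals mark the ACA box near the 3′ end of the H/ACA RNAs, and the C box (TGATGA) and D box (CTGA) of the C/D RNAs. Snora26 lies at chr5:74093530-74093650 on the plus strand, Snora47 at chr13:95330600-95330737 on the plus strand, Snord15b at chr7:99479563-99479707 and Snord15a at chr7:99482785-99482932, both on the minus strand.
Snora26: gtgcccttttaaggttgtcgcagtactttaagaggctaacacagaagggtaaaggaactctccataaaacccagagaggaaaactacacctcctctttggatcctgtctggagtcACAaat
Snora47: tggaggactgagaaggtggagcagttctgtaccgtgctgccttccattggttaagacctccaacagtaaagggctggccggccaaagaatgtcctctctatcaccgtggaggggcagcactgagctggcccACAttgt
Snord15b: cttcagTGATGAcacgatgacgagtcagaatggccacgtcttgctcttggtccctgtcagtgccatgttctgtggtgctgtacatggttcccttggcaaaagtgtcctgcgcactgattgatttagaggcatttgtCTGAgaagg
Snord15a: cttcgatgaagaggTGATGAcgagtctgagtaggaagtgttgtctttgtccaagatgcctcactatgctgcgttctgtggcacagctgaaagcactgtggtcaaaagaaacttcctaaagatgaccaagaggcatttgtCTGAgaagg
Snora26 is 121 bases long, with 3 bases after the ACA box, and Snora47 is 138 bases long, with 4 bases after it. Snord15b and Snord15a are 145 and 148 bases long.

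Snora26 had 6.69 and 6.71 log2 units in CdxE2_KO, against 0.03 and 0.01 in Ctrl (6.34, SE 0.10, adjusted p = 3.1e-06). Snord15b had 9.82 and 9.74 in CdxE2_KO, against 3.36 and 3.61 in Ctrl (5.96, adjusted p = 3.1e-06). Snora47 had 8.15 and 7.95 in CdxE2_KO, against 2.38 and 2.19 in Ctrl (5.43, adjusted p = 8e-06). In all 3 both knockout libraries lay more than 5 log2 units above both controls; the size of the fold for Snora26, which was near 0 in Ctrl, depends on the constant added. Snord15a, shown as the relative of Snord15b, rose by 3.61 (adjusted p = 0.0002). Vaultrc5, an RNA of the vault particle, had 6.17 and 6.15 in CdxE2_KO, against 0.18 and 0.04 in Ctrl (5.71). Snora26 and Vaultrc5 lay under 1 linear unit in Ctrl. They passed the filter through CdxE2_KO alone, so their deposited values could only be higher there. Snora26 had 7.29 and 6.54 in the other motif knockout and 0.02 to 0.04 in the knockdowns. Between the knockouts Snora26 differed by -0.22 (95% interval -0.71 to 0.27).

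Other small RNAs followed. Of 12 listed spliceosomal, Y, vault, 7SK and RNase RNAs 7 were kept and 5 rose, with a median of 1.09, and limma called none lower, with 0 at an unadjusted p under 0.05. The rises include Vaultrc5, which passed the filter through CdxE2_KO alone. Rnu11, an RNA of the minor spliceosome, had 9.54 and 9.42 log2 units in CdxE2_KO, against 4.76 and 5.34 in Ctrl (4.09, adjusted p = 0.0002). Rnu12, of the same particle, had 8.27 and 8.54 in CdxE2_KO, against 5.49 and 4.53 in Ctrl (3.06, adjusted p = 0.0044). Rmrp, the RNA of the RNase MRP enzyme, rose by 0.83 (adjusted p = 0.0012). Mir3113 was the one small RNA fall by the naming rule (-0.86, adjusted p = 0.0041). Snora34 and the microRNA gene Mir1291 overlap in the genome, and rose by 4.06 and 4.33, so their reads cannot be told apart.

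Most small nucleolar RNAs lie in introns of other genes, and the values of those host genes are given for comparison. Of 63 kept hosts 1 rose and 9 fell, with a median of -0.10. Among the 40 kept hosts of small RNAs that rose, 1 rose and 5 fell, with a median of -0.09. Over all genes kept 5.39% rose and 8.31% fell, and whether the hosts differ from other genes was not tested. Snora26 lies in Dancr, whose log2 fold change was -0.16, Snord15a and Snord15b in Rps3 (-0.17), and Snora47 in Zbed3 (0.06). The host that rose was Ckap5 (0.45, adjusted p = 0.0087), which holds Snord67. By length of the longest GENCODE transcript, 75 of 256 genes of up to 300 bases rose and 15 fell, with a median of 0.36. From 301 to 1000 bases, 32 of 496 rose and 51 fell, with a median of -0.03, and the 3 longer classes had medians between -0.05 and -0.04. Only the shortest class thus stood apart, and its counts are close to those of the small RNA symbols (263 kept, 78 rose and 15 fell). It may largely restate that result, and the part of transcript length was not tested.

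**Figure D4:**
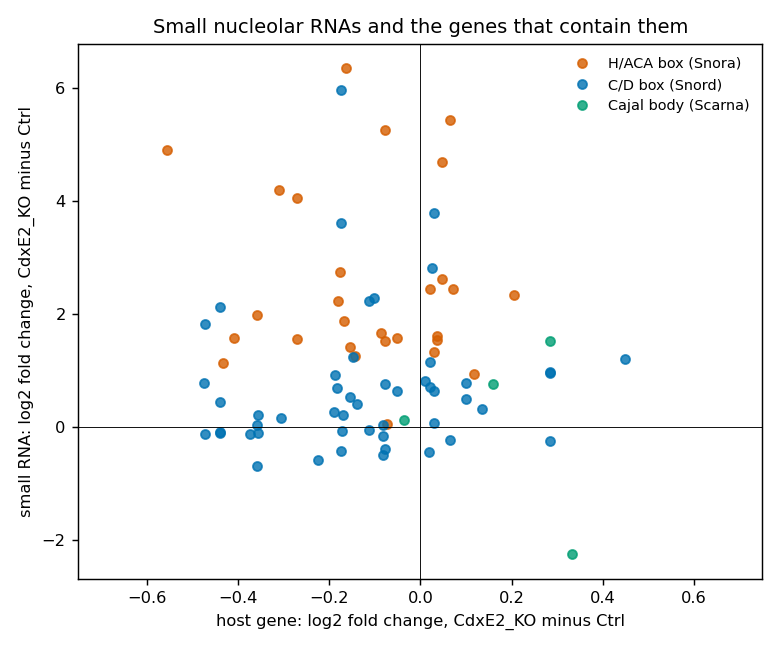
Log2 fold change of each kept small nucleolar or Cajal body RNA (vertical) against that of the kept gene that contains it (horizontal), CdxE2_KO minus Ctrl on centred values. The small RNAs reach 6.34, while their hosts lie between -0.56 and 0.45.

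Ribosomal proteins and histones are among the most abundant gene products of dividing cells. Their counts stand beside 8.31% that fell and 5.39% that rose over all genes kept. Of 80 cytosolic ribosomal protein genes, all kept, 20 fell and 2 rose, with a median of -0.11. Besides Rpl26, Rpl34 fell by 0.86, Rplp0 by 0.62 and Rpl13 by 0.47 (adjusted p = 0.00065, 0.0044 and 0.0052). These 4 held whichever library was left out, but 7 of the 22 calls in this list were made the same way without centring. Of 63 replication-dependent histone genes 60 were kept, 27 fell and 3 rose, with a median of -0.39. Hist1h2ao had 4.11 and 4.25 log2 units in CdxE2_KO, against 5.28 and 5.35 in Ctrl (-1.47, adjusted p = 0.00065). Hist1h2ah fell by 1.31, Hist1h2ak by 1.13 and Hist1h3e by 0.79. Hist1h2ad and Hist2h2aa2, in contrast, rose by 1.66 and 1.60 (adjusted p = 0.0084 and 0.0091). Histone genes are near-identical copies of each other, so a value of a single one is uncertain, and 15 of the 30 calls were made the same way without centring.

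Chromatin and DNA methylation enzymes had 37 of 39 listed genes kept, of which 6 fell and 1 rose, with a median of -0.15. Over all genes kept 8.31% fell and 5.39% rose. At an unadjusted limma p under 0.05, 16 members were lower and 3 higher, beside 3384 of the 10524 genes kept in either direction. Whether the list differs from other genes was not tested. Kmt2d, a histone H3 lysine methyltransferase of enhancers, fell by 0.65 (adjusted p = 0.0074) and held whichever library was left out. Carm1, an arginine methyltransferase of the early embryo, fell by 0.57 (adjusted p = 0.0090, up to 0.052 with 1 library left out). The methyltransferase gene Ehmt2 fell by 0.47 (adjusted p = 0.013) and did not pass without centring.

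Genes inherited from the oocyte are degraded as the embryo develops. Of 37 listed 29 were kept and 5 rose, with a median of 0.14. All 5 were also called without centring, which raises every log2 fold change and so does not test a rise. Over all genes kept 5.39% rose and 8.31% fell. Limma called none lower, and 1 had an unadjusted p under 0.05. Oog3 had 4.45 and 4.75 log2 units in CdxE2_KO, against 3.48 and 3.22 in Ctrl (0.92, adjusted p = 0.016). Npm2, the oocyte nucleoplasmin, rose by 0.61, and Btg4, which starts the clearance of maternal mRNA, by 0.59 (adjusted p = 0.013 and 0.016). None of the 5 held in all 4 fits that left out a library. Of 33 listed genes of the 2-cell stage 13 were kept and 2 fell, Tdpoz2 by 0.59 and Sp110 by 0.65, and limma called none higher, with 1 at an unadjusted p under 0.05. Neither fall passed without centring.

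Cell cycle and metabolic genes were called in both directions, to be read against 13.7% called over all genes kept. Of 40 cell cycle genes 39 were kept, 5 rose and 1 fell, with a median of 0.03. Cdc25a, the phosphatase that activates cyclin-dependent kinases, had 6.10 and 6.11 log2 units in CdxE2_KO, against 5.25 and 5.24 in Ctrl (0.52, adjusted p = 0.0081). It held whichever library was left out, and Ccnd1, cyclin D1, which rose by 0.84 (adjusted p = 0.016), held in 3 of 4. Of 44 DNA replication genes 42 were kept, 2 rose and 3 fell. Of 21 glycolysis genes 17 were kept, 3 rose and 1 fell, with a median of 0.17. Ldha, lactate dehydrogenase A, had 4.76 and 4.96 in CdxE2_KO, against 3.79 and 3.28 in Ctrl (0.99, adjusted p = 0.022), and Pgam1 fell by 0.60 (adjusted p = 0.010). Of 78 nuclear genes of oxidative phosphorylation 76 were kept, 7 rose and 6 fell, with Atp5k up by 0.99 and Ndufs5 lower (-0.96, adjusted p = 0.0032). Of 76 mitochondrial ribosomal protein genes, all kept, 2 rose and 5 fell, and of 39 proteasome genes 36 were kept and 3 fell, with medians of -0.05 and -0.06. Of 33 sterol and fatty acid genes 29 were kept and 1 rose (Hmgcs1, 0.45, named after its values were seen).

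Of 29 listed imprinted genes, a list that here includes the X-inactivation RNA Xist, 20 were kept, 2 rose and 2 fell. Xist had 7.22 and 6.81 log2 units in CdxE2_KO, against 7.81 and 7.99 in Ctrl (-1.22, adjusted p = 0.0072), and held whichever library was left out. Genes of the Y chromosome, chosen after their values were seen, are given beside it. Ddx3y had 5.39 and 5.63 in CdxE2_KO, against 4.42 and 3.93 in Ctrl (1.00, adjusted p = 0.020), and Eif2s3y had 3.83 and 4.07 in CdxE2_KO, against 3.29 and 2.87 in Ctrl (0.53, adjusted p = 0.091). Kdm5d had 1.14 and 1.62 in CdxE2_KO, against 1.22 and 0.59 in Ctrl, and overlapped. Uty had deposited values of 0.86 and 0.95 in CdxE2_KO, against 0.57 and 0.40 in Ctrl. All of these lay under 1 linear unit, so Uty was not kept. The share of male embryos in each library is not given in the labels, and its part in the fall of Xist was not tested. Jade1 and Sfmbt2 rose by 0.83 and 0.76 (adjusted p = 0.018 and 0.030), and Gnas fell by 0.46 (adjusted p = 0.024).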

How the data were processed

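The authors deposited 1 log2 abundance per gene and library, in a table of 6 libraries, with the knockdowns in 2 further tables. The exact zeros put the added constant at 1, and which abundance it is was not given in the sources used here. HISAT2 2.1.0, SAMtools 1.7, StringTie 1.3.4, Cufflinks and the mm10 build appear in the submitters' processing notes. Per the labels' protocols, zona pellucida and polar bodies were removed before a stranded total RNA kit with random priming was used, in which ribosomal cDNA was removed after amplification. Whether reads were assigned by strand is not given in the sources used here, so overlapping genes are uncertain. With no read counts, the depth and the precision it gives are unknown. A value of 0 may reflect a gene the authors' tools could not estimate, since Gapdh had only 0.03 and 0.56 log2 units in CdxE2_KO, and 0 and 0.27 in Ctrl.

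Genes kept had 1 or more linear units in 2 or more of the 4 libraries. Each library was centred on its median over them, and CdxE2_KO was compared with Ctrl by limma 3.58.1, run under R 4.3.3 (eBayes trend on, 2 residual and 4.11 prior degrees of freedom), with Benjamini-Hochberg adjustment over all genes kept and a threshold of 0.05. The knockouts were compared by the same fit over all 6 libraries of the table. Summaries were made with Python 3.11.15 and pandas 2.3.3. On simulated data for this comparison (10524 genes), 100 genes were changed by log2 1 and 100 by log2 2. The fit recovered 68% of the changes of log2 1 and 90% of those of log2 2, and 2.47% of its calls were false. Most calls in the libraries were smaller changes than these, and the share of false calls among such changes was not tested. Lists were described by counts and medians without a set test. The members and the gene lists were chosen with earlier results of these data known. The naming rule took the 4 targets; the 10 called genes with the strongest rise and the 10 with the strongest fall, provided that knockout and control libraries were separate and 1 group averaged 10 or more linear units (small RNAs, Gm, Rik, -ps and LOC symbols left out); up to 4 small RNAs each way likewise; the 4 lowest p-values in each list with 2 or more calls; and the neighbours of Cdx2. A few genes that it takes are not reported here. Others are said to be named after their values were seen. Positions and small RNA sequences are from GENCODE M21, in which 10436 of the kept symbols matched 1 gene, and promoter windows are from RefSeq. Alternatives were the scaling, the added constant, the filter, the libraries in the fit, the variance trend, a replicate block and leaving out each library.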

Additional observations from a re-analysis of the deposited data

How the results depend on the processing

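Against the 1442 genes called between CdxE2_KO and Ctrl, 4262 were called without centring, 5410 without a filter, 681 in the fit of 6 libraries and 397 without the variance trend, and 365 to 1089 with 1 library left out. Of the 1442, 678 were called the same way in the fit of 6 libraries and 389 without the trend. Other scalings, constants and the filter at 5 units gave 1413 to 1977. The 5 calls between the knockouts became 3 with a constant of 0.1, 2 without a filter and 2 without the trend, and ranged from 2 to 141 with 1 library left out. Cdx2 kept its direction and its call in every alternative that gave a value, between -2.63 and -0.91.

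Without centring the sign turned for Arpc1b (0.16), Klf9 (0.021), Cdh1 (0.0081), Brca2 (0.075), Psmc2 (0.13), Lnx2 (0.10), Polr1d (0.30) and Pomp (0.0596), and for Polr1d also with equal sums (0.026) and without a filter (0.076). Leaving out centring raises every log2 fold change by the same amount, so small negative values turn positive by arithmetic. Why Polr1d turned in the other settings was not tested. Of 122 named genes 115 were called, 55 of them whichever library was left out. The call was lost for 26 in the fit of 6 libraries and for 54 without the trend.

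The deviations from the group mean of CdxE2_KO and Ctrl libraries with the same replicate number correlated across genes with r = 0.04. With 2 libraries a group, this value cannot decide whether libraries with the same number were handled together. With the replicate block 1570 genes were called, 1350 of them also in the fit without it, and 4 between the knockouts. Changes of genes with low values are understated by the added constant, and 2 libraries a group limit what could be called.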
